A study of Homo sapiens with 8 samples.

Results

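RNA-seq libraries of cells without functional CHD7 (CHD7 KO) were compared with WT libraries of the same human embryonic stem cell (hESC) line, H9, over all annotated genes, with attention to the genes outside 2 stretches of the genome that were set aside, called the blocks here. The comparison holds 4 of the 8 libraries of the series, 2 per group. The blocks were chromosome 1 from 143.9 to 235.5 Mb, where the genes shifted together, and the long arm (q) of chromosome 16 (GRCh37), where the median gene moved little in this comparison, and 21332 of the 23474 genes tested lay outside them. The WT cells were untreated and carried an HA tag on the endogenous CHD7 protein. The CHD7 KO cells were untreated and labelled CHD7 -/-. In the study, CHD7 null cells were made by CRISPR-Cas9 editing of exon 2 with an insertion or deletion or with a stop codon, and lines were grown from picked colonies. The study's text names the stop codon mutation as the one used in its main experiments. The labels name neither the mutation of these libraries nor the number of lines, and whether the CHD7 KO cells carried the HA tag is not given in the sources used here. An effect of CHD7 loss and a property of the picked line cannot be told apart with these groups. The labels number the libraries of a group 1 and 2 and do not say whether they came from separate cultures, so the p-values measure the spread between these libraries, which may be technical. The other 4 libraries, HERVH KD (HA-tagged WT cells treated with LNA-GapmeRs against the RNA of the endogenous retrovirus family HERVH for 24 h) and HERVH KO (cells with an HERVH element deleted on chromosome 2), served to estimate the spread between replicates.

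CHD7 is an ATP-dependent chromatin remodeler that slides nucleosomes and binds mainly at enhancers marked by mono-methylated histone H3. Mutations that inactivate a copy of its gene cause most cases of CHARGE syndrome, a disorder of the eye, heart, nasal passages, growth, genitals and ear, many of whose affected tissues derive from the neural crest and from sensory placodes. Embryonic stem cells express CHD7 at a high level, and it is needed for the formation of neural crest and for neural differentiation.

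The 4 libraries had 18093439 to 22180918 reads counted on genes, in which 3 reads corresponded to 0.139 to 0.161 CPM (counts per 1000000 reads on genes, with library sizes scaled by the TMM method). CHD7 itself (chr8:61591299-61780587, GRCh37) had 14098 and 13888 reads in WT and 4269 and 3667 reads in CHD7 KO, or 650.3 ± 1.04 CPM (SD, n = 2) against 197 ± 0.0351 CPM (SD, n = 2) (log2 fold change -1.72 ± 0.14 (SE), adjusted p = 2.25e-05). Transcript was thus still counted in both CHD7 KO libraries at a lower level. Counts over the whole gene do not show the edit. The hESC markers POU5F1, NANOG, SOX2, LIN28A, DPPA4 and DNMT3B were all tested and none was called. Of the fibroblast markers, DCN and LUM had at most 5 reads in each of the 4 libraries, and the summed level of the list was 418 to 564 CPM in WT and 462 to 515 CPM in CHD7 KO, with no gene called. Markers of mesoderm, endoderm and trophoblast each summed to 1.31 to 5.66 CPM in WT and 0.878 to 2.59 CPM in CHD7 KO, and TBXT, HAND1, SOX17, GATA6, CGA, CGB5 and GCM1 had at most 5 reads in each. The summed neural markers were at 289 and 322 CPM in WT and 627 and 492 CPM in CHD7 KO, and most of that sum was NES, which lies in the chromosome 1 stretch (5897 and 6543 against 13080 and 8748 reads), so it was not read as a neural change. In bulk RNA, fewer cells of a type and less RNA per cell cannot be told apart.

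A gene was called when its adjusted p in edgeR's quasi-likelihood test was below 0.01 (Benjamini-Hochberg over all 23474 genes tested) and it differed by at least 2-fold. Over all genes tested, 79 (0.337%) were higher and 55 (0.234%) lower in CHD7 KO cells. Outside the blocks, 57 genes (0.267%) rose and 50 (0.234%) fell, and at an adjusted p below 0.05 the counts were 132 (0.619%) and 97 (0.455%), against 184 (0.784%) and 106 (0.452%) over all genes. An unadjusted p below 0.05 was found for 1942 genes outside the blocks (9.1%). Of the called genes, 46 that rose and 45 that fell were protein-coding, and 11 and 4 were long non-coding RNAs (lncRNAs). The rises were larger in general: their log2 fold changes had a median of 3.02 (1.03 to 8.60), against -1.78 (-6.21 to -1.04) for the genes that fell. In 14 of the genes that rose, the WT libraries had a mean of under 10 reads. By comparison, the chromosome 1 stretch held 16 called genes that were higher and 2 that were lower among 951 tested, with a median log2 fold change over its genes of 0.55, whereas the median outside the blocks was -0.03. Chromosome 16q had 3 higher and 2 lower among 461 tested, with a median of -0.09. A further 730 tested genes had no GRCh37 position in the annotation used and were set aside as well, with 3 higher and 1 lower.

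**Figure D1:**
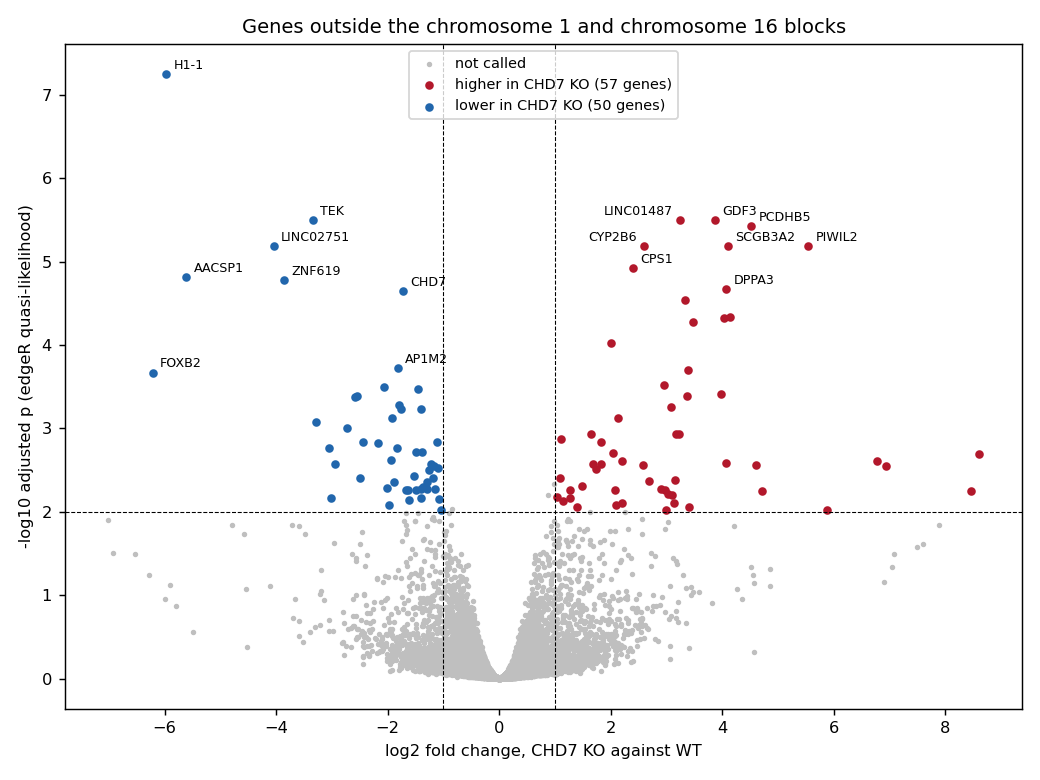
Each point is 1 gene outside the blocks, with the log2 fold change of CHD7 KO against WT on the x axis and -log10 of the adjusted p on the y axis; dashed lines mark the thresholds. The 50 genes that fell include H1-1 with the smallest adjusted p, and the 57 that rose reach larger log2 fold changes than those that fell.

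The number of calls depended on which libraries were in the fit. The 4 WT and CHD7 KO libraries fitted alone gave 162 higher and 116 lower outside the blocks, and the 6 libraries without HERVH KD gave 150 and 125. The replicates of HERVH KD lay further apart (median SD of log2 CPM over genes 0.255) than those of WT (0.126) and CHD7 KO (0.111). With any 1 of the 4 libraries left out, 17 to 25 genes were higher and 8 to 23 lower. Only 22 of the 107 called genes, 15 higher and 7 lower, stayed called whichever library was left out; for the others the adjusted p rose to at most 0.173. All 57 genes that rose were above the 6 libraries that were not CHD7 KO in both CHD7 KO libraries (8.14% of all genes tested outside the blocks were), and 48 of the 50 that fell were below all 6 (7.54%). The exceptions were PRTG and STMN2, whose HERVH KD levels were also low. A call already selects for values beyond the WT libraries, so setting these counts beside the shares of all genes is not a test. Lying beyond all 6 does not show that a gene changed in CHD7 KO alone. FEZF1-AS1 was at 6.28 and 6.58 CPM in HERVH KO (WT mean 13.66). In HERVH KD, DAZL was at 1.37 and 1.60 CPM (WT mean 5.52) and LINC02751 at 5.04 and 3.93 CPM (14.42). ENSG00000254951, which rose, was at 2.35 and 2.40 CPM there (0.37). VIM, which fell in CHD7 KO, was higher in HERVH KD (184 and 168 CPM, WT mean 94.97). How many called genes moved in either way was not counted.

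**Figure D2:**
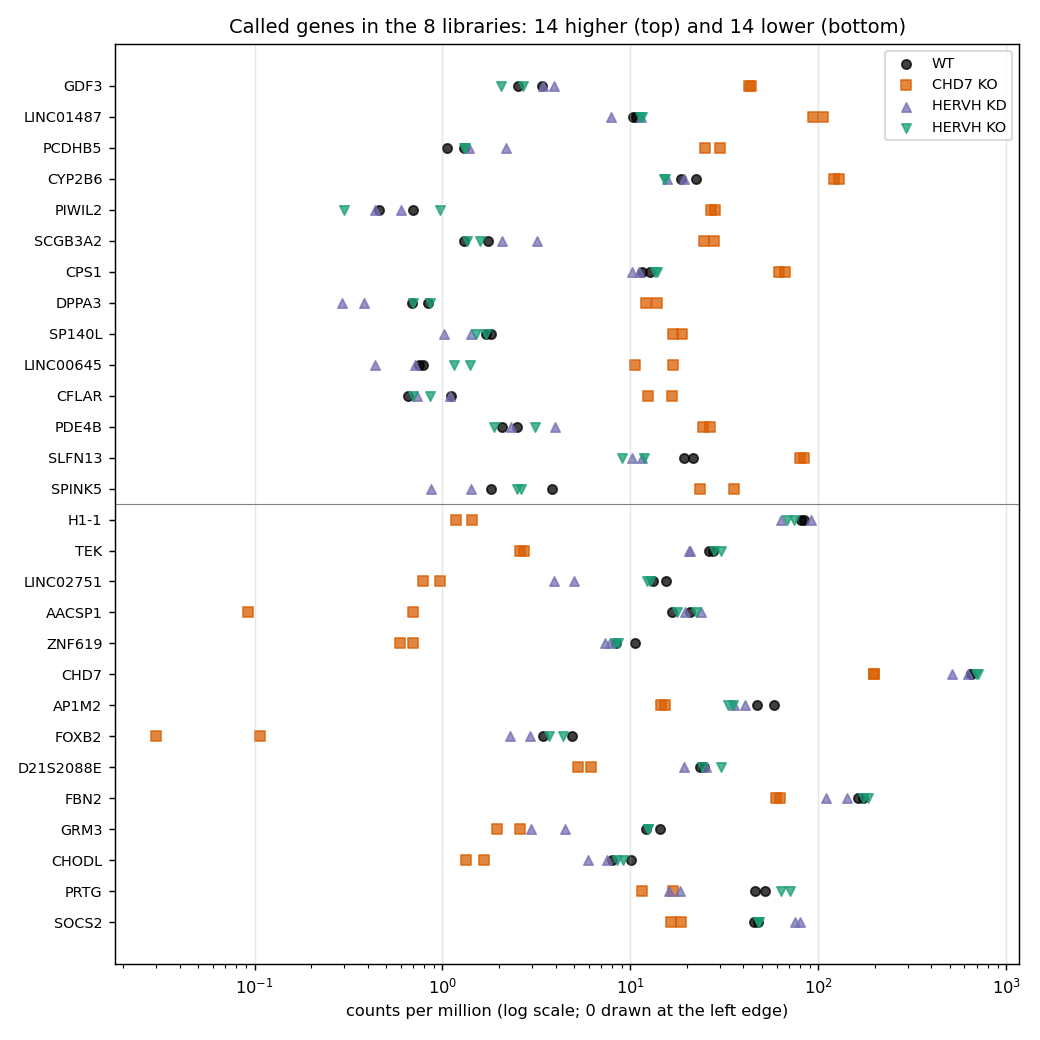
CPM in each of the 8 libraries, on a log axis, for the 14 genes that rose (top) and the 14 that fell (bottom) with the smallest p; each symbol is 1 library, coloured by group, and a count of 0 is drawn at the left edge. The CHD7 KO squares stand apart from the other 6 symbols in each row but that of PRTG, where the HERVH KD symbols lie beside them.

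The largest fall by adjusted p was that of H1-1 (chr6:26017260-26018015), which encodes one of the linker histones, the proteins that bind the DNA between nucleosomes and compact chromatin. It had 1754 and 1805 reads in WT and 31 and 22 reads in CHD7 KO, and its level was 82.7 ± 2.42 CPM (SD, n = 2) in WT but 1.31 ± 0.176 CPM (SD, n = 2) in CHD7 KO (log2 fold change -5.97 ± 0.26 (SE), adjusted p = 5.64e-08). No other linker histone was called among the 8 tested. The abundant members H1-2 (8980 and 6571 against 5918 and 4362 reads, log2 fold change -0.51), H1-4 (9540 and 5631 against 5532 and 4371 reads, -0.52) and H1-5 (9066 and 8268 against 8135 and 5514 reads, -0.26) had adjusted p-values of 0.574, 0.689 and 0.858, and H1-3 was at 0.21 (adjusted p = 0.894). Of the core histones, 15 genes were tested outside the blocks and 0 were called. The reads of H1-1 were 1152 to 1593 in the HERVH KD and HERVH KO libraries, far above both CHD7 KO libraries.

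The promoters of H1-1, H1-2 and H1-4 are printed because a gene that fell and 2 close relatives that were not called lie in the same histone gene region of chromosome 6. Each run holds 250 bases before to 50 bases after the start of the gene in RefSeq (GRCh38.p14), read on the strand of the gene, with CCAAT and the sequence AAACACA, known in histone H1 promoters, in capitals on either strand. H1-1 is at chr6:26017738-26018037 on the minus strand, H1-2 at chr6:26056421-26056720 on the minus strand and H1-4 at chr6:26156079-26156378 on the plus strand.
H1-1: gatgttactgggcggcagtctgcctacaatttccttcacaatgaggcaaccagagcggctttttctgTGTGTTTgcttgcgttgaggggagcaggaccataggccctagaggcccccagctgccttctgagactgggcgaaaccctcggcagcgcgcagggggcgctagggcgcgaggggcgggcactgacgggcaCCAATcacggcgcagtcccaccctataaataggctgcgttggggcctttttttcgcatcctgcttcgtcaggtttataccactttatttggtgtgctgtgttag
H1-2: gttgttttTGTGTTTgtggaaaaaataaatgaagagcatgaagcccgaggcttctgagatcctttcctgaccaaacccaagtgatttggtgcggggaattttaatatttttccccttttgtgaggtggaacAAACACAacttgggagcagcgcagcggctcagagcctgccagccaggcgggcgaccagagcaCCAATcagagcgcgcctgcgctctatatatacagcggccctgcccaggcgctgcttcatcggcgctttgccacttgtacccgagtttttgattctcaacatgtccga
H1-4: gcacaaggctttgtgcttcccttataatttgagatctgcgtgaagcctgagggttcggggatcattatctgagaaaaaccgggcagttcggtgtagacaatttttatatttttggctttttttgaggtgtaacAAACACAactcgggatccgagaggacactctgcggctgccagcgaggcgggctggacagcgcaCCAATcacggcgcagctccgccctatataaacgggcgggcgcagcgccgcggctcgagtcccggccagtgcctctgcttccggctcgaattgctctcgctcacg
CCAAT began 54 bases before the start in H1-1, 57 in H1-2 and 54 in H1-4. In H1-2 and H1-4, AAACACA began 119 and 117 bases before the start on the strand of the gene, and H1-2 held a further match on the opposite strand 242 bases before it. In H1-1 it occurred in the other orientation alone (TGTGTTT), 183 bases before the start. All 6 of the promoters of H1-1 to H1-6 held both motifs, against 34.6% of 35116 RefSeq promoters for CCAAT and 5.64% for AAACACA, counted on both strands. A match is a description of the sequence and was not tested as a binding site.

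Transcription factors of the forebrain and neural ectoderm were among the genes that fell. FOXB2 (chr9:79634571-79635869), a forkhead factor, had 74 and 105 reads in WT and 0 and 2 reads in CHD7 KO (adjusted p = 0.000215), a ratio of summed normalized reads of 83.7 (95% exact counting interval 22.8 to 696). FEZF1, a zinc finger repressor of forebrain development whose loss in people also impairs the sense of smell and puberty, had 540 and 709 reads in WT and 215 and 116 reads in CHD7 KO (log2 fold change -1.84 ± 0.25 (SE), adjusted p = 0.00172). Its divergent antisense transcript FEZF1-AS1 fell as well (288 and 300 reads in WT against 120 and 88 in CHD7 KO; log2 fold change -1.41 ± 0.22 (SE), adjusted p = 0.00528). Thus both transcripts of that locus were lower, although reads of overlapping opposite strands can be told apart only if strand was used in counting, which is not stated. FEZF1-AS1 was also low in HERVH KO (6.28 and 6.58 CPM, WT mean 13.66), whereas FEZF1 was not (35.9 and 42.1 CPM, WT mean 29.05). ZEB2, a repressor of epithelial genes needed for neural crest formation, had 65 and 86 reads in WT against 8 and 10 in CHD7 KO (log2 fold change -2.95 ± 0.42 (SE), adjusted p = 0.00267), and its relative ZEB1 had 111 and 168 against 30 and 54 reads (log2 fold change -1.61, adjusted p = 0.0598, not called). MN1, a transcriptional coregulator, fell by a smaller factor (1235 and 1235 reads in WT against 537 and 505 in CHD7 KO; log2 fold change -1.14 ± 0.18 (SE), adjusted p = 0.00528). The zinc finger genes ZNF619 (228 and 179 reads in WT against 15 and 11 in CHD7 KO; log2 fold change -3.86 ± 0.31 (SE), adjusted p = 1.68e-05) and ZNF558 (507 and 497 reads in WT against 140 and 182 in CHD7 KO; log2 fold change -1.52 ± 0.23 (SE), adjusted p = 0.00369) fell, while ZFP28 rose (7 and 11 reads in WT against 63 and 86 in CHD7 KO; log2 fold change 3.15 ± 0.48 (SE), adjusted p = 0.00416); among 457 zinc finger genes of these symbol series tested, these 3 were called, and the median log2 fold change was -0.03. TSHZ3, a zinc finger homeobox factor, rose (271 and 190 reads in WT against 810 and 635 in CHD7 KO; log2 fold change 1.74 ± 0.25 (SE), adjusted p = 0.00306). FOXB2 and ZNF619 stayed called without any 1 library, and FEZF1, FEZF1-AS1, ZEB2, MN1, ZNF558, ZFP28 and TSHZ3 did not (adjusted p up to 0.117).

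Genes of early neural ectoderm mostly had log2 fold changes below 0, and 1 of them was called. Of 24 members tested outside the blocks, STMN2 fell and 20 had a log2 fold change below 0, with a median of -0.43 (-0.40 in CHD7 KO replicate 1 and -0.52 in replicate 2 against the WT mean), where 53.3% of all genes outside the blocks were below 0 and their median was -0.03. The other 4 members were above 0, the highest at a log2 fold change of 2.445. At an unadjusted p below 0.05 in edgeR's test, 11 members were lower and 2 were higher. SIX3, a homeobox factor of the anterior forebrain and eye, had 18 and 17 reads in WT and 0 and 0 reads in CHD7 KO (adjusted p = 0.0127). With a floor of 3 reads in each CHD7 KO library, that is at least 5.42-fold lower. LHX5 (17 and 24 against 3 and 1 reads, adjusted p = 0.05004), LHX2 (15 and 26 against 4 and 0 reads, 0.0898) and SIX6 (12 and 12 against 0 and 4 reads, 0.318), further homeobox factors of the forebrain and eye field, were also low in CHD7 KO and missed the threshold at these read numbers. PAX6 (38 and 36 against 19 and 43 reads, log2 fold change -0.12) and POU3F1 (1336 and 1089 against 1112 and 978 reads, -0.12) had adjusted p-values of 0.971 and 0.927, and DCX stood higher (240 and 164 against 389 and 332 reads, 0.93, 0.0690). Among the 5 PAX genes tested, all were below 0 and 0 were called, with PAX5 at 115 and 56 against 13 and 15 reads (log2 fold change -2.49, adjusted p = 0.0244). The placode, ear and eye list (18 tested) had 0 called and a median of -0.20, and the neural crest list (24 tested) 0 called and -0.27, with 11 of its 24 genes above 0. In the list of genes linked to CHARGE syndrome or to the related Kallmann syndrome, 33 were tested, CHD7 and FEZF1 fell, 24 were below 0 and the median was -0.17. The guidance factor SEMA3A was at 1999 and 1988 against 1030 and 1021 reads (log2 fold change -0.85, adjusted p = 0.0384), short of 2-fold.

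Receptors, ligands and signal regulators that fell were led by TEK (chr9:27109139-27230172), the angiopoietin receptor of endothelial cells. It had 570 and 589 reads in WT and 59 and 48 reads in CHD7 KO (log2 fold change -3.34 ± 0.21 (SE), adjusted p = 3.20e-06). The angiopoietin genes ANGPT1 (14 and 44 against 62 and 44 reads) and ANGPT2 (55 and 58 against 87 and 79 reads) and the related receptor gene TIE1 (15 and 29 against 24 and 13 reads), looked up after TEK was seen, were not called (adjusted p = 0.562, 0.660 and 0.962). SOCS2, an inhibitor of growth hormone and cytokine signalling, had 1029 and 969 reads in WT against 402 and 305 in CHD7 KO (log2 fold change -1.41 ± 0.17 (SE), adjusted p = 0.000578). PDGFA, a growth factor of mesenchymal cells, had 624 and 488 reads in WT against 212 and 184 in CHD7 KO (log2 fold change -1.39 ± 0.19 (SE), adjusted p = 0.00189). ADM, a vasodilator peptide induced by hypoxia, had 1170 and 1365 reads in WT against 459 and 309 in CHD7 KO (log2 fold change -1.64 ± 0.26 (SE), adjusted p = 0.00546), whereas the other 23 genes tested of the hypoxia list were not called and the list's median was 0.06. These genes encode secreted factors or inhibitors of different pathways. APELA, a secreted ligand of the apelin receptor made by hESC, had 646 and 691 reads in WT against 303 and 221 in CHD7 KO (log2 fold change -1.26 ± 0.19 (SE), adjusted p = 0.00315). TMEM88, a membrane protein that inhibits Wnt signalling, had 215 and 297 reads in WT against 60 and 47 in CHD7 KO (log2 fold change -2.16 ± 0.29 (SE), adjusted p = 0.00151). TEK was called whichever library was left out, and SOCS2, PDGFA, ADM, APELA and TMEM88 were not (adjusted p up to 0.109).

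Called matrix and cytoskeleton genes moved in both directions. FBN2, a microfibril protein of the embryonic matrix, had 3540 and 3682 reads in WT and 1296 and 1169 reads in CHD7 KO (log2 fold change -1.45 ± 0.16 (SE), adjusted p = 0.000340), while FBN1 (822 and 757 against 582 and 559 reads) and FBN3 (1823 and 2510 against 1897 and 1827 reads) had log2 fold changes of -0.37 and -0.12 (adjusted p = 0.451 and 0.926). Of 41 collagen genes tested, COL12A1 fell (335 and 282 reads in WT against 109 and 108 in CHD7 KO; log2 fold change -1.40 ± 0.23 (SE), adjusted p = 0.00688) and COL6A3 rose (90 and 93 reads in WT against 293 and 418 in CHD7 KO; log2 fold change 2.08 ± 0.34 (SE), adjusted p = 0.00546), and the median of the family was -0.21. The partner chains COL6A1 (6355 and 5641 against 3257 and 3158 reads, log2 fold change -0.80, adjusted p = 0.0359) and COL6A2 (4112 and 3302 against 1750 and 1876 reads, -0.92, 0.0328) had log2 fold changes below 0 and were not called. Of the collagens, 25 were below 0 and 16 above, and at an unadjusted p below 0.05 in edgeR's test 13 were lower and 4 higher. In the laminin and basement membrane list, 14 were below 0 and 7 above (median -0.25, 0 called). In the fibroblast and mesenchyme list, which holds VIM and COL6A3, 10 were below 0 and 5 above (median -0.25). VIM, the intermediate filament of mesenchymal cells, had 2037 and 2050 reads in WT and 906 and 847 reads in CHD7 KO (log2 fold change -1.12 ± 0.15 (SE), adjusted p = 0.00144). FLNC, an actin crosslinker of muscle, had 1200 and 1444 reads in WT against 555 and 537 in CHD7 KO (log2 fold change -1.17 ± 0.17 (SE), adjusted p = 0.00285), and was the 1 called gene of 28 tested targets of the factors SRF and YAP (median -0.18). NEBL, a nebulin-like actin-binding protein, fell (843 and 683 reads in WT against 197 and 219 in CHD7 KO; log2 fold change -1.76 ± 0.21 (SE), adjusted p = 0.000578), whereas ACTG2, smooth muscle gamma actin, rose (15 and 9 reads in WT against 135 and 80 in CHD7 KO; log2 fold change 3.23 ± 0.41 (SE), adjusted p = 0.00118). SMOC2, a calcium-binding matrix protein, rose too (163 and 111 reads in WT against 584 and 469 in CHD7 KO; log2 fold change 2.04 ± 0.28 (SE), adjusted p = 0.00197), and the 3 expressed genes within 1 Mb of it had a median log2 fold change of 0.78, so its surroundings were high as well. CRIP2, a LIM domain protein, fell (210 and 193 reads in WT against 32 and 25 in CHD7 KO; log2 fold change -2.72 ± 0.34 (SE), adjusted p = 0.000977), and the 17 expressed genes within 1 Mb of it had a median log2 fold change of -0.39, so its surroundings were low as well. Without 1 of the libraries, the calls of FBN2, COL12A1, COL6A3, VIM, FLNC, NEBL, ACTG2, SMOC2 and CRIP2 were lost (adjusted p up to 0.135).

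Genes known from neurons also went both ways. GRM3, a metabotropic glutamate receptor, had 261 and 307 reads in WT and 42 and 48 reads in CHD7 KO (log2 fold change -2.55 ± 0.29 (SE), adjusted p = 0.000405). CHODL, a C-type lectin of motor neurons, had 172 and 215 reads in WT against 29 and 31 in CHD7 KO (log2 fold change -2.58 ± 0.29 (SE), adjusted p = 0.000416), and PRTG, an adhesion receptor of the early neural tube, 1125 and 986 reads in WT against 250 and 314 in CHD7 KO (log2 fold change -1.79 ± 0.21 (SE), adjusted p = 0.000528). STMN2, a microtubule regulator of growing axons, had 261 and 154 reads in WT against 47 and 49 in CHD7 KO (log2 fold change -2.002 ± 0.32 (SE), adjusted p = 0.00522). In contrast, GAP43, a growth cone protein, rose (191 and 114 reads in WT against 682 and 573 in CHD7 KO; log2 fold change 2.14 ± 0.26 (SE), adjusted p = 0.000757), and so did the synaptic vesicle protein SYT4 (29 and 14 reads in WT against 189 and 173 in CHD7 KO; log2 fold change 3.17 ± 0.40 (SE), adjusted p = 0.00116). SLITRK1, a synaptic adhesion protein, fell (312 and 219 reads in WT against 86 and 75 in CHD7 KO; log2 fold change -1.62 ± 0.27 (SE), adjusted p = 0.00719), and was with SYT4 the only called gene of 47 tested in the list of synaptic adhesion and vesicle genes, whose median was -0.04. The cadherin CDH9 fell (48 and 48 reads in WT against 8 and 3 in CHD7 KO; log2 fold change -3.01 ± 0.50 (SE), adjusted p = 0.00676), as did PTCHD4, a Patched-like membrane protein (153 and 91 reads in WT against 11 and 12 in CHD7 KO; log2 fold change -3.29 ± 0.40 (SE), adjusted p = 0.000827). For GRM3, CHODL, PRTG, STMN2, GAP43, SYT4, SLITRK1, CDH9 and PTCHD4 the adjusted p passed 0.01 when at least 1 library was left out (up to 0.113). GRM3, CHODL and PRTG lost the call under 1 setting, the fit without CHD7 KO replicate 1.

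GDF3, which had the smallest p in edgeR's test among the genes that rose, and its neighbour DPPA3 are expressed in pluripotent cells and early embryos. GDF3 (chr12:7842380-7848371), a TGF-beta family ligand, had 55 and 72 reads in WT and 948 and 793 reads in CHD7 KO (log2 fold change 3.87 ± 0.25 (SE), adjusted p = 3.20e-06). DPPA3 (chr12:7864029-7870155), a maternal factor that protects DNA methylation in the early embryo, had 15 and 18 reads in WT and 261 and 259 reads in CHD7 KO (log2 fold change 4.07 ± 0.34 (SE), adjusted p = 2.13e-05). Both rose in the same 2 libraries by a similar factor, and both were called whichever library was left out. NANOG, a core pluripotency factor on the same stretch of chromosome 12, had 1650 and 1698 against 1781 and 1507 reads (log2 fold change 0.07, adjusted p = 0.948). Of 28 core pluripotency genes tested, GDF3 alone was called and the median was 0.05, and DPPA3 was the 1 called gene of 8 tested in the list of naive pluripotency. Among the other members, DPPA2 had 87 and 50 against 179 and 212 reads (log2 fold change 1.63, adjusted p = 0.0243), OTX2 1622 and 1660 against 961 and 731 reads (-0.86, 0.0396) and KLF4 120 and 60 against 100 and 85 reads (0.14, 0.9496). Called rises were thus found in single members of these lists. Of the 28 core pluripotency genes, 15 were above 0 and 13 below. At an unadjusted p below 0.05 in edgeR's test, 7 of them were higher and 2 lower. Over all genes outside the blocks, 9.1% had such a p in either direction.

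Of 26 germline and meiosis genes tested, 1 rose and 1 fell. PIWIL2, the Argonaute protein that binds piRNAs in the germline, had 10 and 15 reads in WT and 608 and 497 reads in CHD7 KO (log2 fold change 5.54 ± 0.40 (SE), adjusted p = 6.50e-06). DAZL, a germ cell RNA-binding protein, had 146 and 92 reads in WT and 19 and 8 reads in CHD7 KO (log2 fold change -3.04 ± 0.41 (SE), adjusted p = 0.00172). DAZL was also low in HERVH KD (1.37 and 1.60 CPM, WT mean 5.52). PIWIL2 and DAZL moved in opposite directions, and DAZL lost the call in fits without 1 library. The groups did not overlap for either gene, as in all 57 called genes that rose and all 50 that fell. Non-overlap follows from the call and adds no separate support. The list had a median of 0.05.

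Clustered protocadherins were the family with the most called genes. These cadherin-like adhesion proteins are encoded by 3 neighbouring clusters (alpha, beta and gamma) on chromosome 5, where each variable exon has its own promoter, and neurons use a random few of them as a surface code. PCDHB5 had 23 and 28 reads in WT and 646 and 465 reads in CHD7 KO (log2 fold change 4.53 ± 0.30 (SE), adjusted p = 3.73e-06), and was called whichever library was left out. PCDHA11 had 187 and 245 reads in WT against 696 and 566 in CHD7 KO (log2 fold change 1.64 ± 0.21 (SE), adjusted p = 0.00118) and PCDHA7 28 and 36 reads in WT against 108 and 144 in CHD7 KO (log2 fold change 2.09 ± 0.36 (SE), adjusted p = 0.00831). In the gamma cluster, PCDHGA9 had 36 and 41 reads in WT against 160 and 169 in CHD7 KO (log2 fold change 2.20 ± 0.31 (SE), adjusted p = 0.00246) and PCDHGA11 166 and 153 reads in WT against 444 and 390 in CHD7 KO (log2 fold change 1.48 ± 0.23 (SE), adjusted p = 0.00495). In all 5, both CHD7 KO values were above both WT values, as in 19.3% of all genes outside the blocks (23.1% had both below). All 57 called genes that rose had this property, so it follows from the call and adds no separate support. All 51 members were tested, 5 rose, 0 fell, and 42 were above 0, where 46.7% of all genes outside the blocks were. Their median log2 fold change was 0.95, with 0.82 in CHD7 KO replicate 1 and 0.99 in replicate 2. By cluster the median was 0.99 over 15 alpha genes, 0.58 over 15 beta genes and 1.01 over 21 gamma genes. The summed level of the alpha cluster was 84.6 and 94.0 CPM in WT against 134 and 156 CPM in CHD7 KO, that of the beta cluster 57.2 and 59.8 against 102 and 102 CPM, and that of the gamma cluster 105 and 104 against 141 and 164 CPM. In HERVH KD the alpha sum was 116 and 140.3 CPM, which overlapped the CHD7 KO values, and in HERVH KO it was 82.0 and 77.5 CPM. The calls of PCDHA11, PCDHA7, PCDHGA9 and PCDHGA11 were lost without at least 1 library (adjusted p up to 0.114). Reads in the constant exons that the alpha or the gamma genes share are ambiguous between them, so the counts rest mainly on the variable exons.

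Some members did not follow. PCDHB2, the most abundant beta gene, had 631 and 689 against 666 and 518 reads (log2 fold change -0.06 ± 0.18), and the neighbouring gamma genes PCDHGB6 (214 and 234 against 180 and 185 reads, -0.19 ± 0.22), PCDHGA10 (382 and 314 against 248 and 252 reads, -0.37 ± 0.21) and PCDHGB7 (363 and 387 against 265 and 266 reads, -0.39 ± 0.20) stood between PCDHGA9 and PCDHGA11 with values below 0. The last gamma genes PCDHGC3 (-0.08 ± 0.23), PCDHGC4 (-0.31 ± 0.30) and PCDHGC5 (0.25 ± 0.37) and the last alpha gene PCDHAC2 (-0.39 ± 0.23) were near or below 0. The members with the highest WT counts of their cluster were thus among those that did not rise. The protocadherins outside the clusters behaved in another way: of 11 tested, 0 rose and 2 fell, PCDH7 (410 and 477 reads in WT against 108 and 106 in CHD7 KO; log2 fold change -1.95 ± 0.27 (SE), adjusted p = 0.00238) and PCDH17 (163 and 138 reads in WT against 34 and 41 in CHD7 KO; log2 fold change -1.89 ± 0.29 (SE), adjusted p = 0.00444), with a median of -0.12. Both calls were lost without at least 1 library (adjusted p up to 0.102).

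**Figure D3:**
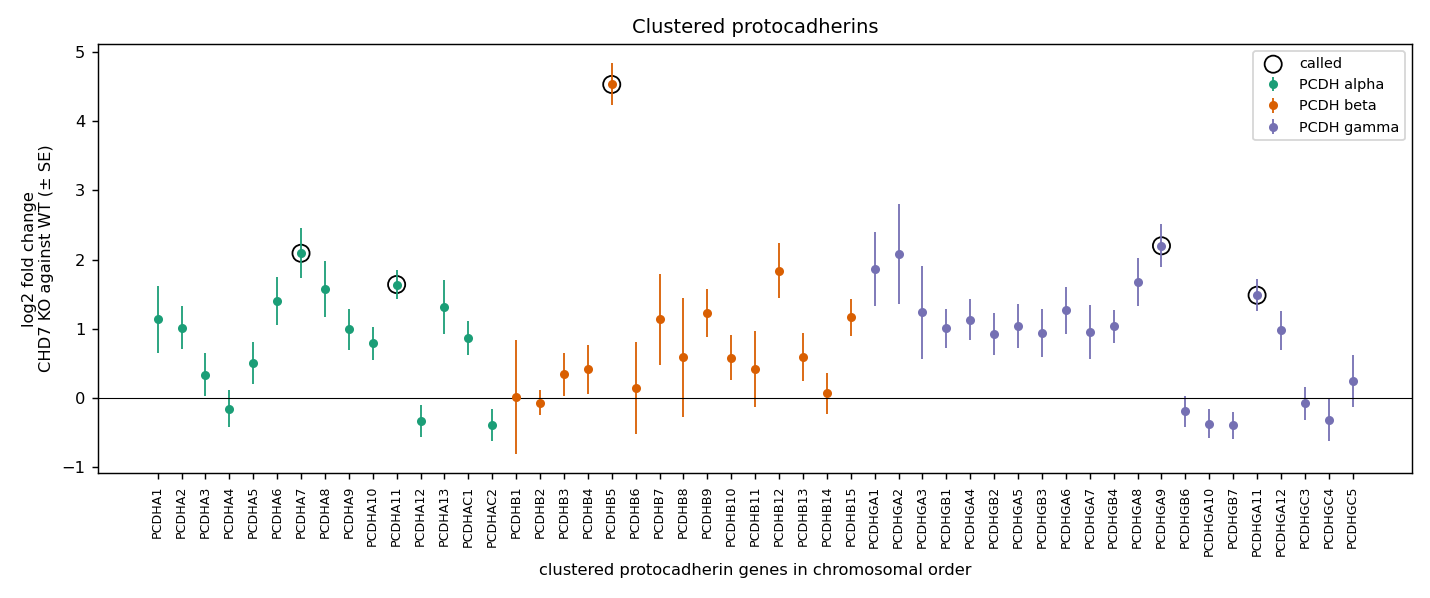
Log2 fold change of CHD7 KO against WT (points, with the SE derived from the F statistic as bars) for the 51 clustered protocadherin genes in their order along chromosome 5, coloured by cluster. Circles mark called genes. PCDHB5 stands at 4.53, most other genes lie between 0 and 2, and a few, such as PCDHB2 and PCDHGA10, lie at or below 0.

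Promoters of 2 beta genes and 2 gamma genes are printed to show what members that rose and a member that did not have in common. The capitals mark GGCGCTG in the beta promoters and GCGCCGCTG in the gamma promoters. These letters, which contain the CGCT core of the element known from protocadherin promoters, were picked after the sequences were read. The windows are chr5:141134956-141135255 for PCDHB5, chr5:141094365-141094664 for PCDHB2, chr5:141402528-141402827 for PCDHGA9 and chr5:141420801-141421100 for PCDHGA11, all on the plus strand of GRCh38.p14.
PCDHB5: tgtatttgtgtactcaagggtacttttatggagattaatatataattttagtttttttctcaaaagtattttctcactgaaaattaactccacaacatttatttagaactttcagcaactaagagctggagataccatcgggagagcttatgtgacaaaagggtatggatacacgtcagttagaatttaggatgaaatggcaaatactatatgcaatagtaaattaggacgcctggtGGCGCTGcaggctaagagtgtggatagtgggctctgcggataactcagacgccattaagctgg
PCDHB2: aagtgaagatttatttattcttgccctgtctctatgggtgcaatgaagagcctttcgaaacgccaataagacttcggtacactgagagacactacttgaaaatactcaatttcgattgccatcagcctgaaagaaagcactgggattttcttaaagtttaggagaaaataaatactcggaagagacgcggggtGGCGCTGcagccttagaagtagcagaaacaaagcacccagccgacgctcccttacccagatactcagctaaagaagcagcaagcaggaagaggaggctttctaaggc
PCDHGA9: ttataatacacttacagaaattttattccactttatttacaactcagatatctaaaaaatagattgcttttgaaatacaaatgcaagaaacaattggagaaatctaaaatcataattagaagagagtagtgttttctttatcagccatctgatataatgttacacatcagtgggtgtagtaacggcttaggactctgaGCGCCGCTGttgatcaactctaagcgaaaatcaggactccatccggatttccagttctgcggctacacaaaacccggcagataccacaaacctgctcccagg
PCDHGA11: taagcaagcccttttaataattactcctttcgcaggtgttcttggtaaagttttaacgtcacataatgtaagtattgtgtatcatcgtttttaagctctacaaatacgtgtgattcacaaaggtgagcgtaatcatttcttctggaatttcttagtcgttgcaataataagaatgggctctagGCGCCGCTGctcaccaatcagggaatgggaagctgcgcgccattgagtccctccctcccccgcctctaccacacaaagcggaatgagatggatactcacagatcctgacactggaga
GGCGCTG began 13 bases before the annotated start of PCDHB5 and 57 bases before that of PCDHB2, and GCGCCGCTG began 52 and 67 bases before the starts of PCDHGA9 and PCDHGA11. GGCGCTG was in 12 of 14 beta promoters and in 11.5% of all RefSeq promoters, and GCGCCGCTG in 11 of 25 gamma promoters and in 1.28% of all. PCDHB5, which rose, and PCDHB2, which was not called, share the element.

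Enzymes and a receptor of the liver were among the genes that rose. CYP2B6 (chr19:41497187-41524303), a cytochrome P450 that oxidizes drugs, had 486 and 398 reads in WT and 2790 and 2248 reads in CHD7 KO (log2 fold change 2.61 ± 0.18 (SE), adjusted p = 6.50e-06). NR1I2, the xenobiotic receptor that activates cytochrome P450 genes in liver, had 0 and 0 reads in WT and 51 and 48 reads in CHD7 KO (adjusted p = 0.00203), which is at least 17.7-fold higher with a floor of 3 reads in each WT library. They were the called genes among 24 tested of the drug and bile acid list, which had a median of 0.06. Each was the 1 called gene of its family (32 cytochrome P450 genes and 32 nuclear receptors tested). Of the cytochrome P450 genes, 16 were above 0 and 16 below. At an adjusted p below 0.05 and 2-fold, 1 of them was higher and 2 were lower. Of 11 endoderm genes tested, 4 were above 0 and 7 below, with a median of -0.25 and 0 called. ABCB1, a drug efflux pump, had 14 and 21 against 48 and 45 reads (log2 fold change 1.503, adjusted p = 0.201). CPS1, which makes carbamoyl phosphate in the first step of the urea cycle, had 275 and 246 reads in WT and 1333 and 1234 reads in CHD7 KO (log2 fold change 2.40 ± 0.19 (SE), adjusted p = 1.20e-05). ASS1, which joins citrulline to aspartate in a later step, moved the other way (3600 and 3002 reads in WT against 1519 and 1365 in CHD7 KO; log2 fold change -1.09 ± 0.16 (SE), adjusted p = 0.00298). Looked up after these were seen, ASL (160 and 225 against 194 and 165 reads), NAGS (182 and 205 against 167 and 146 reads) and ARG2 (448 and 442 against 280 and 285 reads) of the same cycle were not called (adjusted p = 0.999, 0.924 and 0.263). ARG1 (11 and 14 against 15 and 7 reads, adjusted p = 0.982) was not called either, and OTC had 0 reads in each library and was not tested. The carrier genes SLC25A15 (271 and 356 against 421 and 345 reads) and SLC25A13 (2572 and 2732 against 3155 and 2179 reads) were not called (adjusted p = 0.667 and 0.913). CYP2B6 and CPS1 stayed called without any 1 library, while NR1I2 and ASS1 did not (adjusted p up to 0.0757).

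Single genes known from immune cells and 1 inhibitor of cell death rose, while the apoptosis, antigen presentation and interferon lists held at most 1 called gene each. CFLAR, the inhibitor of caspase 8 at death receptors, had 24 and 14 reads in WT and 268 and 310 reads in CHD7 KO (log2 fold change 4.03 ± 0.36 (SE), adjusted p = 4.79e-05). The caspase genes beside it, CASP10 (48 and 52 against 144 and 119 reads, log2 fold change 1.49, adjusted p = 0.0344) and CASP8 (98 and 66 against 161 and 129 reads, 0.92, 0.219), were not called at 0.01, and CFLAR was the 1 called gene of 28 tested apoptosis regulators (median -0.05). SP140L, a chromatin reader of the SP100 family, had 37 and 39 reads in WT against 363 and 351 in CHD7 KO (log2 fold change 3.33 ± 0.29 (SE), adjusted p = 2.92e-05), and SLFN13, an RNase of the Schlafen family, 466 and 413 reads in WT against 1734 and 1558 in CHD7 KO (log2 fold change 2.005 ± 0.19 (SE), adjusted p = 9.39e-05). HLA-DRA, the alpha chain of an MHC class II receptor, had 7 and 4 reads in WT against 97 and 79 in CHD7 KO (log2 fold change 4.06 ± 0.57 (SE), adjusted p = 0.00256). In the antigen presentation list, 23 were tested, HLA-DRA alone was called, 15 were above 0 and the median was 0.27 (0.23 and 0.27 in the CHD7 KO replicates). At an unadjusted p below 0.05 in edgeR's test, 5 members of the list were higher and 0 lower. HLA-DQB1 (129 and 96 against 267 and 292 reads, log2 fold change 1.42, adjusted p = 0.0254) stood higher. All 5 genes tested from HLA-DRA to HLA-DQB1 were above 0, among them HLA-DQA1 (37 and 21 against 64 and 68 reads, 1.29, 0.253). HLA-C (2419 and 2407 against 2009 and 1675 reads, -0.29, 0.751) was not called. Nor was CIITA, the activator of class II genes (43 and 38 against 41 and 16 reads, -0.44, 0.859). Reads of HLA genes can be split between near-identical copies, so these values are uncertain. VAV1, a guanine nucleotide exchange factor of blood cells, had 1 and 0 reads in WT and 101 and 47 reads in CHD7 KO (adjusted p = 0.00285), a ratio of 158 (95% exact counting interval 28.0 to 6296). Of 36 interferon response genes tested, 0 were called and the median was 0.01. CFLAR, SP140L and SLFN13 held without any 1 library, and HLA-DRA and VAV1 did not (adjusted p up to 0.0736).

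Further genes that rose have varied functions. SCGB3A2 (chr5:147250245-147261754), a secretoglobin of the airway, had 38 and 28 reads in WT and 606 and 459 reads in CHD7 KO (log2 fold change 4.10 ± 0.30 (SE), adjusted p = 6.50e-06), and SPINK5, a serine protease inhibitor of skin, had 83 and 39 reads in WT and 511 and 659 reads in CHD7 KO (log2 fold change 3.38 ± 0.35 (SE), adjusted p = 0.000198). PDE4B, a phosphodiesterase that degrades cAMP, had 45 and 53 reads in WT against 577 and 453 in CHD7 KO (log2 fold change 3.48 ± 0.32 (SE), adjusted p = 5.25e-05), and GNA14, an alpha subunit of the Gq class, 12 and 21 reads in WT against 169 and 152 in CHD7 KO (log2 fold change 3.37 ± 0.38 (SE), adjusted p = 0.000405). These 4 stayed called whichever library was left out. TCEAL5, an X-linked gene of a family related to transcription elongation factor A, had 1 and 0 reads in WT and 75 and 56 reads in CHD7 KO (adjusted p = 0.00248), a ratio of 140.1 (95% exact counting interval 24.7 to 5577), while of the other 19 genes tested in that X-linked list 0 were called and the list's median was 0.14. CAPN6, an X-linked calpain without protease activity, had 107 and 118 reads in WT against 376 and 370 in CHD7 KO (log2 fold change 1.83 ± 0.24 (SE), adjusted p = 0.00144). BTF3, a highly expressed subunit of the nascent polypeptide-associated complex, rose by little more than 2-fold (3926 and 3377 reads in WT against 8247 and 6464 in CHD7 KO; log2 fold change 1.10 ± 0.14 (SE), adjusted p = 0.00135). HHLA1 (240 and 151 reads in WT against 644 and 531 in CHD7 KO; log2 fold change 1.68 ± 0.24 (SE), adjusted p = 0.00267) and EXPH5, an effector of the GTPase RAB27B (288 and 172 reads in WT against 774 and 740 in CHD7 KO; log2 fold change 1.82 ± 0.26 (SE), adjusted p = 0.00267), rose as well. The calls of TCEAL5, CAPN6, BTF3, HHLA1 and EXPH5 were lost without at least 1 library (adjusted p up to 0.0585).

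The remaining protein-coding genes named by the rule fell. AP1M2, a clathrin adaptor subunit of epithelial cells, had 1256 and 1004 reads in WT and 332 and 270 reads in CHD7 KO (log2 fold change -1.81 ± 0.19 (SE), adjusted p = 0.000190). TM4SF18, a membrane protein of the L6 family, had 343 and 281 reads in WT against 77 and 77 in CHD7 KO (log2 fold change -1.91 ± 0.23 (SE), adjusted p = 0.000759), and ENTREP1 had 655 and 668 reads in WT against 229 and 210 in CHD7 KO (log2 fold change -1.49 ± 0.20 (SE), adjusted p = 0.00192). ARMH4, a membrane protein with armadillo-like repeats, had 987 and 1079 reads in WT against 436 and 393 in CHD7 KO (log2 fold change -1.22 ± 0.17 (SE), adjusted p = 0.00267). The 9 expressed genes within 1 Mb of ENTREP1 had a median of 0.32, opposite to its fall. In these 4 genes both CHD7 KO libraries lay below the lower WT library, as in all 50 called genes that fell, so this adds no separate support. Each lost the call without at least 1 library (adjusted p up to 0.0736).

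The rule for naming covered 70 genes, and 37 further called genes, 23 that rose (log2 fold change 1.03 to 8.47) and 14 that fell (-3.01 to -1.04), lay outside it; those described here were chosen after their values were seen. Among regulators of lymphocytes, RAG1, which cuts antigen receptor genes, rose (31 and 29 reads in WT against 123 and 133 in CHD7 KO; log2 fold change 2.20 ± 0.37 (SE), adjusted p = 0.00782), and so did EBF1, a factor of B cells (4 and 9 against 89 and 44 reads, adjusted p = 0.00879). NLRP10, of the NLR family, had 0 and 1 against 46 and 25 reads (adjusted p = 0.00962), a ratio of 76.0 (95% exact counting interval 13.2 to 3042). CHP2, a calcineurin-like calcium-binding protein, had 0 and 0 against 47 and 43 reads (adjusted p = 0.00559), at least 16.1-fold higher, and DESeq2 called neither of these 2 genes. With the replicate block, EBF1, NLRP10, IL1RAPL2 and ENSG00000267364 lost theirs. KCNH5, a potassium channel (146 and 173 against 421 and 363 reads), DYSF, a protein of muscle membrane repair (518 and 505 against 997 and 951 reads), and OLFML3, a secreted olfactomedin (647 and 500 against 1462 and 1132 reads), rose by smaller factors. TMTC1, RBMS2, A2ML1, C5orf63, IL1RAPL2, PWWP3B and the lncRNA TEX41 rose as well; the 6 expressed genes within 1 Mb of PWWP3B had a median log2 fold change of 0.58. Of the genes that fell, BCHE, an enzyme that splits choline esters, had 125 and 102 reads in WT against 17 and 20 in CHD7 KO (log2 fold change -2.50 ± 0.38 (SE), adjusted p = 0.00394). CHGA, a protein of neuroendocrine granules (2915 and 2231 against 1087 and 1168 reads), SEZ6, a neuronal membrane protein (464 and 406 against 177 and 140 reads), the matrix protein MXRA5 (957 and 846 against 316 and 366 reads) and SYNPO2, an actin-bundling protein (331 and 291 against 92 and 112 reads), fell in both libraries. ATP9A, GCNT4, PPP1R16B and the lncRNA LINC02693 fell too. EXPH5, VAV1, TSHZ3, APELA, MN1, CDH9, FEZF1-AS1, PLCL2 and OR5H8, given with their groups, also lay outside the rule. The other 4 were lncRNAs without a symbol that rose.

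LncRNAs and a pseudogene were among the called genes with the smallest p. LINC01487 had 233 and 220 reads in WT and 2034 and 1967 reads in CHD7 KO (log2 fold change 3.25 ± 0.21 (SE), adjusted p = 3.20e-06) and LINC00645 had 17 and 16 reads in WT against 229 and 313 in CHD7 KO (log2 fold change 4.15 ± 0.37 (SE), adjusted p = 4.65e-05). LINC01194 (143 and 110 reads in WT against 833 and 987 in CHD7 KO; log2 fold change 2.96 ± 0.32 (SE), adjusted p = 0.000299) and MIRLET7BHG, the host transcript of let-7 microRNAs on chromosome 22 (11 and 7 reads in WT against 131 and 136 in CHD7 KO; log2 fold change 3.98 ± 0.44 (SE), adjusted p = 0.000384), rose too, and lost the call without WT replicate 2 alone (adjusted p = 0.0124 and 0.0146). Whether the mature let-7 microRNAs changed is not shown by these libraries. ENSG00000233393, an lncRNA of chromosome 21 without a symbol, rose as well (38 and 59 reads in WT against 396 and 372 in CHD7 KO; log2 fold change 3.08 ± 0.36 (SE), adjusted p = 0.000547; adjusted p up to 0.0111 with 1 library left out). LINC02751 fell (337 and 284 reads in WT against 17 and 18 in CHD7 KO; log2 fold change -4.04 ± 0.29 (SE), adjusted p = 6.50e-06), as did the transcribed pseudogene AACSP1 (360 and 446 reads in WT against 2 and 13 in CHD7 KO; log2 fold change -5.61 ± 0.45 (SE), adjusted p = 1.52e-05). LINC02751 was also lower in HERVH KD (5.04 and 3.93 CPM, WT mean 14.42). A further lncRNA, D21S2088E, had 533 and 501 reads in WT against 114 and 115 in CHD7 KO (log2 fold change -2.07 ± 0.23 (SE), adjusted p = 0.000317), and lost the call without CHD7 KO replicate 1 (adjusted p = 0.0185). Of 3622 lncRNAs tested outside the blocks, 11 rose and 4 fell, against 46 and 45 of 13941 protein-coding genes.

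Some changed genes lay beside one another. At an adjusted p below 0.05 and 2-fold, 229 genes outside the blocks were called, and 55 of them (24.0%) had another gene called in the same direction with a start within 250 kb, in 22 groups, 14 higher and 8 lower. The window was chosen after the data were examined. The share to be found from gene density alone was not computed, so the 24.0% does not show that changed genes cluster. The clustered protocadherins made up 2 of these groups. GDF3 and DPPA3 formed another, at chr12:7842380-7870155. SCGB3A2, SPINK5 and the processed pseudogene ENSG00000249518 (15 and 12 against 59 and 66 reads, adjusted p = 0.0332) lay together at chr5:147231207-147516945, while SPINK1 beside them had 14 and 17 against 18 and 15 reads (log2 fold change 0.18 ± 0.65). SLFN13, SLFN12 (320 and 240 against 561 and 523 reads, 0.0265) and ENSG00000267364 (8 and 6 against 58 and 59 reads, 0.00783) lay at chr17:33640461-33775856, where all 8 genes tested were above 0. The olfactory receptor genes OR5H8 (6 and 1 against 68 and 107 reads, adjusted p = 0.00561), OR5H2 (0 and 0 against 28 and 32 reads, 0.0143) and OR5H6 (0 and 0 against 19 and 26 reads, 0.0261) were close to silent in WT and counted in CHD7 KO, though these near-identical genes can split reads. Among the lower groups, DAZL lay with PLCL2 (484 and 478 against 182 and 183 reads, 0.00528) and ENSG00000229271 (39 and 46 against 7 and 0 reads, 0.0186), SOCS2 with SOCS2-AS1 (112 and 137 against 34 and 39 reads, 0.0164) and SIX3 with LINC01833 (17 and 20 against 0 and 1 reads, 0.0145). No group held a gene called in the opposite direction. Divergent pairs and overlapping transcripts can share reads, so such pairs are not independent. Genes of these groups that the naming rule did not cover were chosen after their values were seen.

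**Figure D4:**
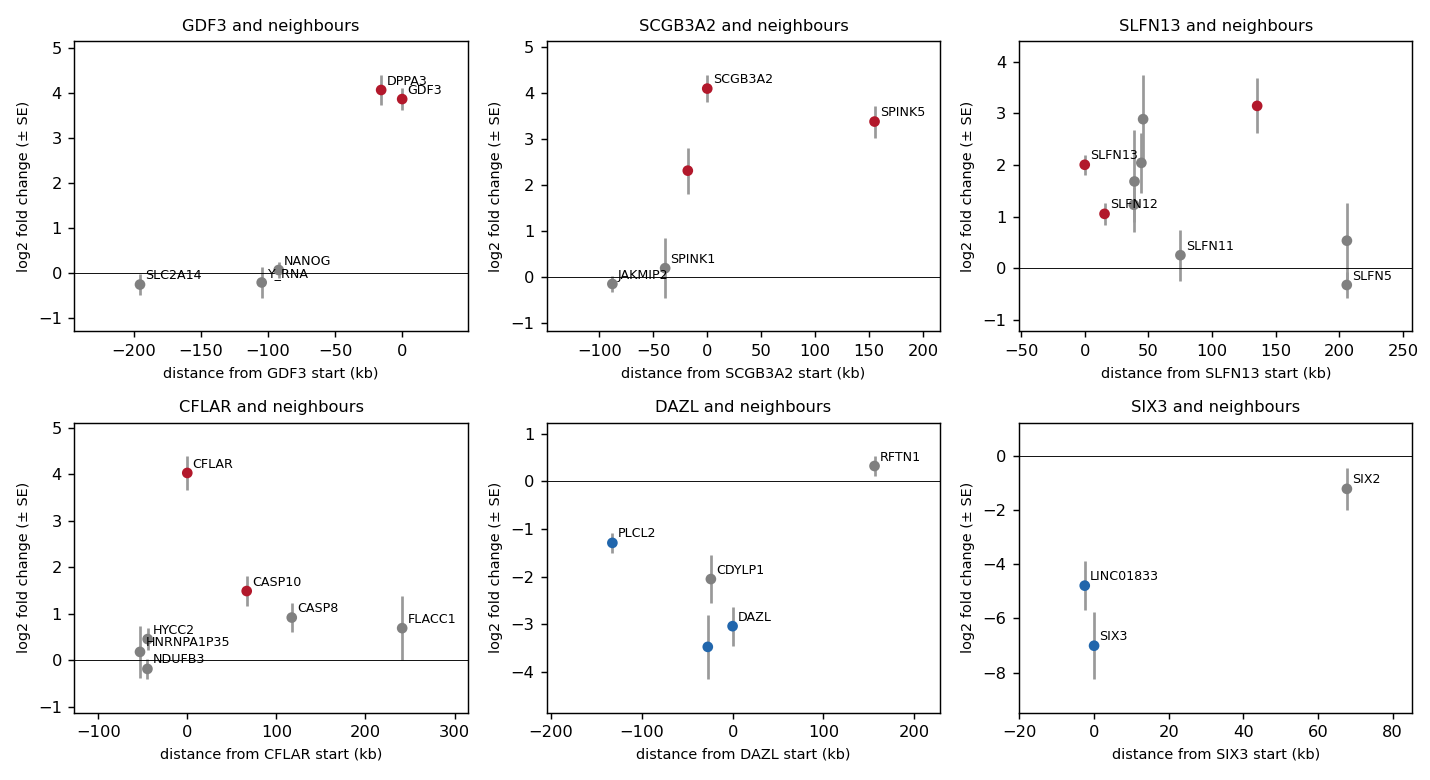
Log2 fold change (points, with SE bars) of all tested genes around 6 changed genes against the distance of their start from that of the named gene in kb, along the strand of that gene and within 300 kb; red and blue points passed an adjusted p of 0.05 and 2-fold, unlabelled points are genes without a symbol, and grey points did not pass. GDF3 and DPPA3 stand near 4 while NANOG is at 0.07, and PLCL2 at -1.29 lies beside DAZL at -3.04.

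Across the 50 gene lists, 1167 genes were tested outside the blocks, of which 10 (0.857%) rose and 9 (0.771%) fell. Over all genes outside the blocks the shares were 0.267% and 0.234%. The lists were chosen with earlier results of these data known and hold CHD7 and H1-1, so no conclusion is drawn from the difference. Most lists held no called gene. Lists with 0 called included the WNT pathway (49 tested, median -0.10), Hedgehog (15, 0.08), FGF and ERK signalling (36, -0.04), the retinoic acid pathway (16, -0.09), Polycomb (28, -0.04), the BAF complex (24, -0.04), NuRD (13, -0.08), DNA methylation (14, 0.01), the cell cycle (39, near 0) and glycolysis (28, -0.03). In the Nodal, activin and BMP pathway (53 tested, median near 0), GDF3 was the 1 called gene, and the BMP antagonist GREM1 stood lower (38 and 70 against 8 and 10 reads, log2 fold change -2.47, adjusted p = 0.0176). Of the other 7 CHD genes tested outside the blocks 0 were called. CHD3 stood higher, short of 2-fold (1645 and 1560 against 2497 and 2333 reads, log2 fold change 0.69, adjusted p = 0.0460). The Notch pathway (31 tested) had a median of -0.40 (-0.51 and -0.29 in the CHD7 KO replicates), with 24 genes below 0 and 0 called; its lowest members were HES4 (46 and 23 against 8 and 3 reads, 0.256) and DLK1 (68 and 41 against 5 and 19 reads, 0.114). Targets of p53 (32 tested) had a median of -0.24 (-0.29 and -0.25), 27 below 0 and 0 called, with CDKN1A at 1031 and 452 against 329 and 278 reads (-1.19, 0.114), where 1 WT library was far above the other. At an unadjusted p below 0.05 in edgeR's test, 11 of the p53 targets were lower and 0 higher, and 8 of the Notch genes were lower and 2 higher. Small shifts the other way were seen for the ISWI and INO80 remodelers (15 tested, 14 above 0, median 0.25, 0 called) and cholesterol synthesis (22 tested, 20 above 0, median 0.21, 0 called), the latter with 0.34 in CHD7 KO replicate 1 and 0.11 in replicate 2. The 76 cytosolic ribosomal protein genes tested had a median of -0.16, with 68 below 0 and 0 called. Notch, p53 and ribosomal lists were described by their counts and medians, with no test of the lists.

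Fold changes also varied with base composition. Over the expressed genes outside the blocks (mean log2 CPM above 2), sorted by GC content into 5 bins of equal size, the median log2 fold change was 0.03 in the lowest bin (median GC content 38.0%) and -0.15 in the highest (61.3%), and in CHD7 KO replicate 2 it was 0.01 and -0.21. The members of the Notch list had a median GC content of 59.5%, those of the neural ectoderm list 49.3%, those of the p53 list 47.8% and those of the ISWI and INO80 list 48.0%. In the middle bin (47.6%) the median log2 fold change was -0.03. The part of base composition in the list medians was not tested.

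**Figure D5:**
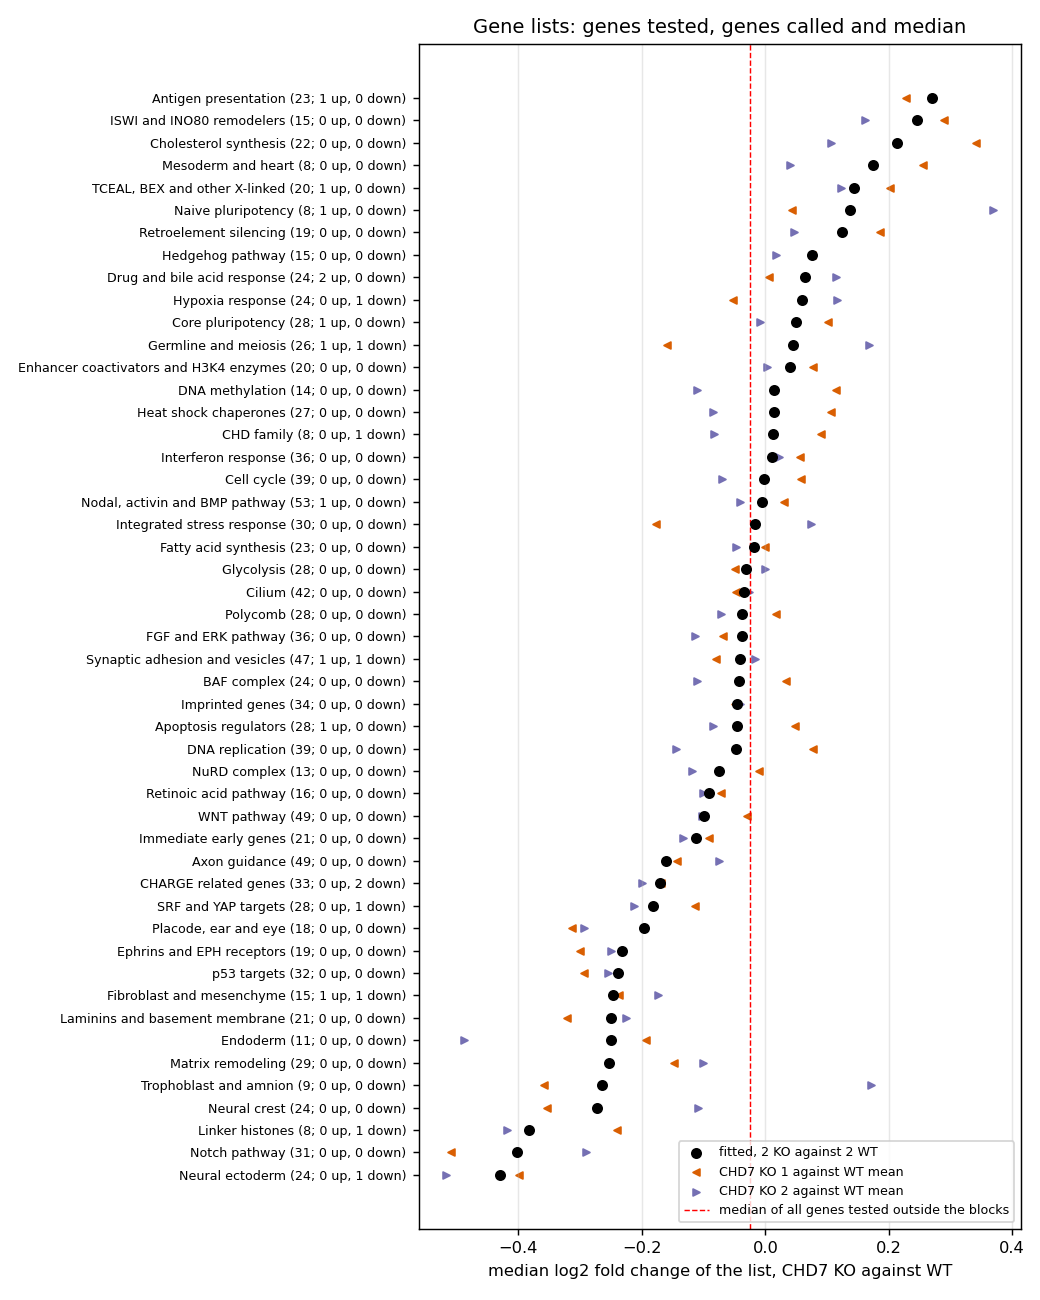
Median log2 fold change of each gene list with at least 5 genes tested outside the blocks (black points), and the same median for each CHD7 KO library against the WT mean (triangles); the row labels give the genes tested and called, and the dashed line is the median of all genes tested outside the blocks (-0.03). Neural ectoderm and Notch lie lowest at -0.43 and -0.40, antigen presentation highest at 0.27, and most lists hold 0 or 1 called gene.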

How the data were processed

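RNA-seq of rRNA-depleted RNA from H9 cells was available for 8 libraries, 2 per condition. The deposited files hold read counts per Ensembl gene, as whole numbers without normalization; per the study's methods, the authors aligned the reads with STAR (hg19) and assigned them to genes with HTSeq-count and an Ensembl GRCh37 annotation. The study's methods describe strand-specific libraries, but tool versions and the strand setting of the counting are not given in the sources used here. HTSeq summary lines were left out of library sizes: 34.9% to 42.5% of the reads assessed lay outside genes and 3.81% to 4.49% were ambiguous in the 4 libraries compared. Reads on genes ranged from 14802049 to 23156445 over the 8 libraries.

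Counts were tested with edgeR 4.0.16 (R 4.3.3) by its quasi-likelihood F-test, the group being the only term and all 8 libraries entering, with TMM scaling, filterByExpr and 4 residual degrees of freedom. A call needed an adjusted p below 0.01 and 2-fold, the thresholds of the study's methods. CPM were TMM-scaled, and log2 CPM used a prior count of 2. The SE of a log2 fold change was derived as its absolute value divided by the square root of the F statistic. Intervals and floors (3 reads per library) cover counting error only. Positions and symbols came from GENCODE 44 lifted to GRCh37, which placed 55538 of 57773 genes. Tested on simulated data for this comparison, the procedure recovered 94 of 100 genes changed 4-fold, 32 of 100 changed 2-fold, and called 2 unchanged genes of 22700 tested. The changed genes were drawn from those with a mean log2 CPM above 1, so recovery among genes with fewer reads was not measured. Tables were made with Python 3.11.15 and pandas 2.3.3. Samples were grouped by their labels. Alternatives were RLE scaling, TMM from genes outside the blocks, other filters, DESeq2 1.42.0, fewer libraries, the replicate block, other thresholds and each replicate left out.

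Genes named were CHD7, H1-1 and FOXB2, the 30 that rose and the 30 that fell with the smallest p among called genes with non-overlapping groups outside the blocks, called members of 50 gene lists, and called genes of symbol families (59 examined) with 2 or more of them, 70 genes in all, of which 1 is not reported here. The members, lists and regions set aside were chosen with earlier results of these data known. Of 1471 genes in the lists, 1458 matched the files.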

Additional observations from a re-analysis of the deposited data

How the results depend on the processing

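The log2 fold change of CHD7 was -1.73 to -1.69 under every alternative and stayed called. Counts of calls moved more, and the cause was not tested. For all genes (79 higher and 55 lower), genes outside the blocks (57 and 50) and list members called (19), testing every gene with a count gave 219 and 149, 157 and 134, and 47; DESeq2 gave 175 and 111, 121 and 103, and 34; the 4 libraries alone gave 222 and 127, 162 and 116, and 38; the 6 libraries without HERVH KD, added after seeing the data, gave 209 and 136, 150 and 125, and 40; and an adjusted p below 0.05 gave 184 and 106, 132 and 97, and 32. Requiring a mean log2 CPM above 1 left 12 list members. With 1 replicate left out, 17 to 27 genes were higher and 8 to 24 lower over all genes, 17 to 25 and 8 to 23 outside the blocks, and 7 to 10 list members were called, with fewer samples in the fit. RLE scaling, TMM from genes outside the blocks and no fold limit stayed within 1.5 times of each count. The 69 named genes other than CHD7 stayed called under RLE scaling, TMM from genes outside the blocks, no filter on counts, DESeq2, the 4 libraries alone and the 6 libraries; a mean log2 CPM above 1 ended 6 calls among the 65 still tested, and leaving out 1 replicate ended 30 to 44 of 69. No named gene changed direction.

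Replicate numbers were checked for pairing: the deviations of same-numbered WT and CHD7 KO libraries from their group means correlated at -0.237 over 12840 genes. Those of CHD7 KO correlated at -0.11 with HERVH KD and -0.232 with HERVH KO, while WT with HERVH KD (0.279), WT with HERVH KO (0.423) and HERVH KD with HERVH KO (0.287) were positive. Not every pair of groups was above 0.1 and the labels name no shared batch, so the numbers were taken to name samples only, although the numbers of the other 3 groups moved together and those of CHD7 KO moved against them. With the replicate block, 88 genes were higher and 65 lower, and 59 and 59 outside the blocks, with 21 list members called and CHD7 at -1.72; all named genes stayed called. With the CHD7 KO numbers crossed in the block, added after seeing the data, 125 genes were higher and 82 lower, and 86 and 74 outside the blocks, with 26 list members.

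Among the limits, 2 libraries per group allow no outlier check, calls of genes with under 10 reads in WT rest on few reads, and in the simulation 2-fold changes were mostly missed, so a gene that was not called is not shown to be unchanged.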
